A study of Mus musculus with 4 samples.

Results

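Solute carriers are membrane proteins that move sugars, amino acids, metals, ions, vitamins and other small molecules across membranes, most of them down a gradient or coupled to the flow of an ion. A cell that changes from a dividing progenitor into a phagocytic, antigen-presenting cell changes what it takes up and what it stores in its compartments. The members were chosen by name alone: all genes of the array's annotation whose symbol starts with Slc and a number, leaving out the glucose transporter gene Slc2a1. That gave 148 of the 8220 genes measured, each read by its brightest probe set by mean level, and 82 of the 148 lay above 400 units on at least 1 array. Those 82 are described here by substrate, in 15 classes drawn by gene family. The other 66 lay under 400 units on every array. Just under that level were Slc23a3, Slc25a53 and Slc6a18, whose highest arrays read 324, 320.3 and 302 units, and just over it were Slc22a17, Slc6a20b and Slc25a3, at 425, 426 and 432 units.

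The study grew dendritic cells, which present antigen to T cells, from mouse bone marrow in culture. The labels give 4 arrays of total RNA, 1 per group: cells differentiated for 10 days and exposed for 16 hours to TNF (tumour necrosis factor), a maturation stimulus for these cells, and, as a series, in vitro amplified dendritic cell progenitors, cells differentiated for 7 days and cells differentiated for 10 days. Strain, age, dose and the number of cultures or mice behind an array are not given in the labels. With 1 array per group there is no replicate, so each difference is one between 2 arrays, no p-value is given, and a bulk array cannot tell fewer cells of a type from less RNA per cell. Levels are scaled intensities in arbitrary units. For ratios, levels under 400 units were raised to 400, so a fold against such a level is a lower bound, written as "at least", and genes are counted as higher or lower at 2-fold or more. A level belongs to its probe set, so levels are compared between arrays and not between genes.

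The labels were set against marker genes. Of 12 dendritic cell markers measured, such as MHC class II genes, Itgax and Ccr7, 11 lay above 400 units on some array, and their summed levels (negative levels as 0) were 361123 units with TNF, against 6330.1 in progenitors, 87471 at day 7 and 348008 at day 10. The largest terms with TNF were H2-Aa, H2-Eb1 and Cd74, at 81387, 73687 and 71535 units. Flt3 went the other way, at 614 units with TNF, against 1972 in progenitors, 805 at day 7 and 517 at day 10. Zbtb46 read at most 77.4 units on every array. The 6 progenitor markers summed to 2327 units with TNF, against 42909, 9037 and 2637 units in the same series. Most of the progenitor sum was Mpo (26659.7 units in progenitors) and Myb (8955). Kit went the other way, at 1624 units with TNF, against 647 in progenitors, 1308 at day 7 and 1362 at day 10, and Cd34 lay under 400 units on every array. The progenitor list shares Flt3 with the dendritic cell list and Mpo with the granulocyte list. Granulocyte transcripts were present too, at 17537 units over 8 markers with TNF, against 171377 units in progenitors, 116965 at day 7 and 141744 at day 10. The 8 macrophage markers summed to 46405 units with TNF, against 8682, 45668 and 77405 units in the series. On each array 22.8% to 24.3% of probe sets had a value below 0. Bacterial control transcripts, read by 9 probe sets and not made by the cells, were higher at day 10 than at day 7 by a median of 1.5 on the log2 scale (range 1.20 to 1.77). Over all genes above 400 units on some array, the median log2 ratio of day 10 to day 7 was 0.00 at mean levels of 400 to 4000 units, 0.24 at 8000 to 16000 and 1.19 above 16000. Probe sets of the same gene, both above 400 units, gave log2 ratios that differed with an SD of 0.62 for day 7 against progenitor (389 genes), 0.73 for day 10 against day 7 (385), 0.81 for day 10 against progenitor (354) and 0.57 for TNF against day 10 (380). This SD holds disagreement within an array pair and leaves out the spread between cultures.

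At the floor of 400 units, solute carriers as a family did not lean one way. At day 7 against progenitor 5 of the 82 members were higher and 6 lower, where 9.65% and 8.97% of all 4829 genes above 400 units on some array were. At day 10 against day 7, 7 were higher and 4 lower, against 6.67% and 4.43% of all genes. Day 10 against progenitor had 14 higher and 9 lower, against 16.3% and 14.1%. TNF against day 10 had 6 higher and 8 lower, against 4.43% and 4.78%. As shares of the 82 these were 6.1% and 7.32%, 8.54% and 4.88%, 17.1% and 11%, and 7.32% and 9.76%. Both shares lay under the background at day 7 against progenitor and above it for TNF against day 10. The farthest from its background was the lower share with TNF, 9.76% against 4.78%, which rests on 8 genes. In the values as deposited the split was 4 higher and 5 lower for day 10 against day 7, and 11 and 13 for day 10 against progenitor, so the majority of higher genes in those comparisons depends on the scaling. Median log2 ratios of the 82 were 0.00, 0.08, 0.11 and 0.00 in the same order, against 0.00 for all genes each time. The filter at 400 units keeps some genes only through the array on which they are high. It was the same for members and background, and over all 148 members the same genes were called, against 5.67% and 5.27% of 8220 genes for day 7, 3.92% and 2.6% for day 10 against day 7, 9.56% and 8.31% for day 10 against progenitor, and 2.6% and 2.81% for TNF.

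**Figure D1:**
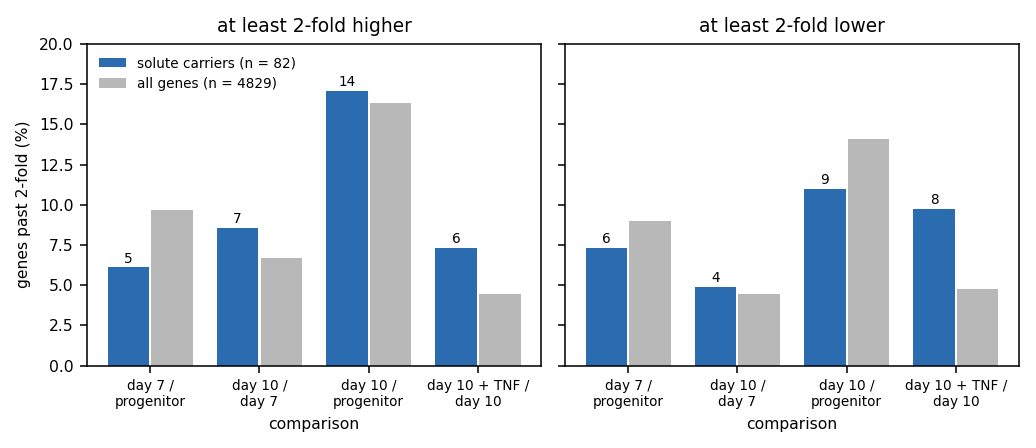
Share of genes at least 2-fold higher (left) or lower (right) in each comparison, in percent, for the 82 solute carrier genes (blue, with the number of genes above each bar) and for all 4829 genes above 400 units on at least 1 array (grey). The blue bars are below the grey ones for day 7 against progenitor and above them for TNF against day 10. With TNF 6 genes were higher and 8 lower, where the background shares were 4.43% and 4.78%.

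In all, 35 of the 82 were called in at least 1 comparison, 16 of them in exactly 1, 14 in 2 and 5 in 3. The other 47 were called in none. The share of all genes called in at least 1 comparison was not counted, so nothing is read from the number 35. The TNF array was the highest of the 4 for 29 members (35.4%, against 26.8% of all genes), progenitors for 20 (24.4% against 35.5%), day 10 for 19 (23.2% against 23.9%) and day 7 for 14 (17.1% against 13.9%). Individual transporters are described next by what they transport.

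**Figure D2:**
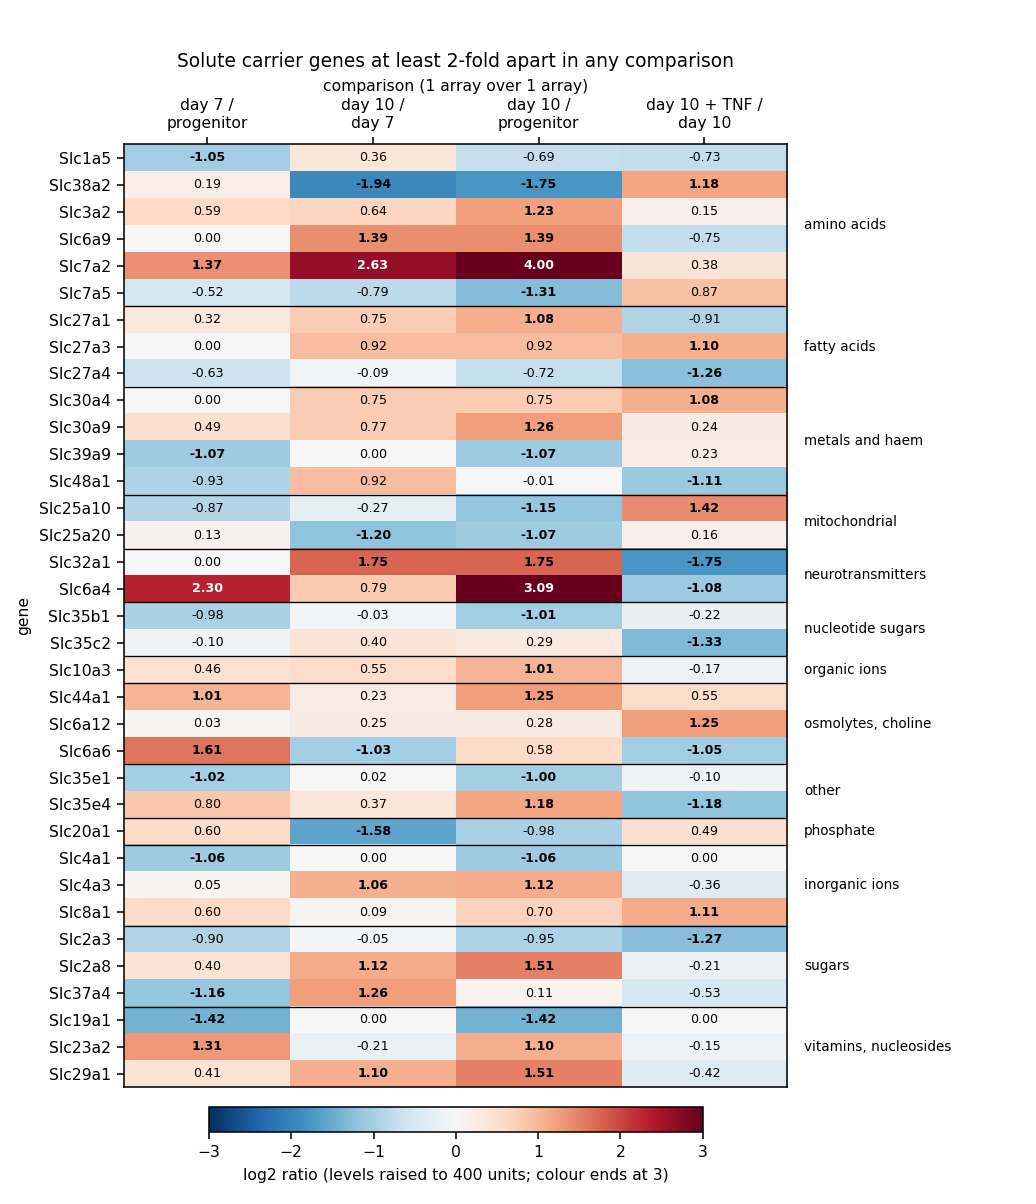
Log2 ratio of 1 array over another for the 35 carrier genes called in at least 1 of 4 comparisons (columns), grouped by substrate (right). Levels were raised to 400 units first, values of 1 or more in either direction are bold, and the colour scale ends at 3; Slc7a2 (4.00) and Slc6a4 (3.09) at day 10 against progenitor lie beyond it.

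Amino acid transporters formed the class with the largest ratio, and its members moved in opposite directions. Of 23 measured, 10 lay above 400 units. Slc7a2, which encodes the cationic amino acid transporter CAT2 and supplies arginine to macrophages, read 8338 units with TNF, against -3.76 in progenitors, 1033 at day 7 and 6393 at day 10. It lay under 0 on the progenitor array and was high on both day 10 arrays. It was at least 2.58-fold higher at day 7 than in progenitors, 6.19-fold higher at day 10 than at day 7, and at least 16-fold higher at day 10 than in progenitors, a log2 ratio of 4.00 that was 3.93 after quantile normalization. TNF and day 10 differed by only 1.30-fold. Among the 82 members this was the highest ratio in both comparisons of day 10.

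Slc3a2 encodes the heavy chain CD98, which carries the light chains of the Slc7 family to the cell surface. It read 17314 units with TNF, against 6659 in progenitors, 10012 at day 7 and 15647 at day 10. The 2 day 10 arrays were the highest, 2.35-fold above progenitors for day 10 (log2 ratio 1.23). That ratio was 0.98, short of a call, after quantile normalization, and all genes at a mean level of 8000 to 16000 units, where Slc3a2 lies, had a median of 0.45 in the same comparison. Slc7a5, the light chain LAT1 for large neutral amino acids, went the other way. It read 3338 units with TNF, against 4532 in progenitors, 3161 at day 7 and 1825 at day 10, and was 2.48-fold lower at day 10 than in progenitors (log2 ratio -1.31). With TNF it was 1.83-fold above day 10 and short of a call.

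Slc38a2, which encodes the neutral amino acid transporter SNAT2 and is known to be induced when amino acids run short, had the lowest ratio of all 82 members at day 10 against day 7. It read 1847 units with TNF, against 2741 in progenitors, 3125 at day 7 and 813 at day 10. Day 10 stood apart from the 3 other arrays, 3.84-fold under day 7 and 3.37-fold under progenitors, and TNF was 2.27-fold above day 10 (log2 ratio 1.18). The glutamine transporter gene Slc1a5 read 790.1 units with TNF, against 2114 in progenitors, 1021 at day 7 and 1310.1 at day 10. Progenitors were highest, with day 7 2.07-fold lower. The glycine transporter gene Slc6a9 read 623 units with TNF, against -67 in progenitors, 133 at day 7 and 1045 at day 10, and was at least 2.61-fold higher at day 10 than on either earlier array.

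Another 4 amino acid transporter genes above 400 units were called in no comparison. Slc7a7, a light chain that exports cationic amino acids, read 802 units with TNF, against 183 in progenitors, 297 at day 7 and 759 at day 10. Slc7a8, the light chain LAT2, read 166 units with TNF, against 699, 747 and 277 units in the series. Slc1a4, for alanine and serine, read 700.1 units with TNF and lay under 400 on the other arrays, at -57.8, 11.1 and 263 units in the series, at least 1.75-fold apart from day 10. The cystine and glutamate exchanger gene Slc7a11, which feeds glutathione synthesis, read 548 units with TNF, against 36.2, 73.8 and 335 units, at least 1.37-fold. Slc7a8 was the only one of these 4 with its 2 lowest readings on the day 10 arrays.

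Slc7a11 is known as a target of ATF4, a factor of the amino acid stress response that binds C/EBP-ATF response elements, and its promoter is shown for that element. The 82 members were matched by symbol to RefSeq promoters (GRCm38.p6, 250 bases before to 50 after the start site), which gave 103 windows of 69 genes. The letters TGATGNAA were searched on both strands, with N any base. They are in capitals in the Slc7a11 window, chr3:50443564-50443863 on the minus strand, starting 66 and 47 bases before the start site.
Slc7a11: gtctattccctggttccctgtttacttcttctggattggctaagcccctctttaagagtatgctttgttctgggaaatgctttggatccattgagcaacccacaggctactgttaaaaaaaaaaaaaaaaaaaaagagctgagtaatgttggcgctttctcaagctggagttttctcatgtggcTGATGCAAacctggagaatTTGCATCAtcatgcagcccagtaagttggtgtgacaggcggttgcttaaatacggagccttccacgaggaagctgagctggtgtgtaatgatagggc
Of the 103 member windows 4.85% held these letters, in Slc1a4, Slc50a1, Slc7a11 and Slc7a7, against 3.97% of all 32851 windows. These 4 genes were called in no comparison. The called genes Slc10a3, Slc1a5, Slc2a3, Slc48a1, Slc4a1, Slc6a6, Slc7a2 and Slc7a5 had no window and were not searched. A match of letters is a description and no evidence of binding. Among genes of the amino acid stress and glutathione list, 9 of 13 measured lay above 400 units. Ddit3, a factor downstream of ATF4, was at least 15-fold higher at day 10 than in progenitors, at 4312 units with TNF, against 336, 1350.0 and 6011 units in the series. Atf4 itself read 16604 units with TNF, against 11565, 11470 and 21411, and the asparagine synthetase gene Asns 5917, against 5223, 5366 and 6911, neither of them called. Psat1, an enzyme of serine synthesis, was 9.23-fold lower at day 10 than in progenitors, at 206 units with TNF, against 10072, 4143 and 1092 units. In that list 1 gene was higher and 1 lower at day 7 against progenitor and again at day 10 against progenitor. Day 10 against day 7 had 2 higher and 1 lower, and TNF 1 higher and 2 lower. Over all genes above 400 units on some array the shares were 9.65% and 8.97% at day 7 and 16.3% and 14.1% at day 10 against progenitor. They were 6.67% and 4.43% at day 10 against day 7, and 4.43% and 4.78% with TNF. No lean is read from so few genes.

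**Figure D3:**
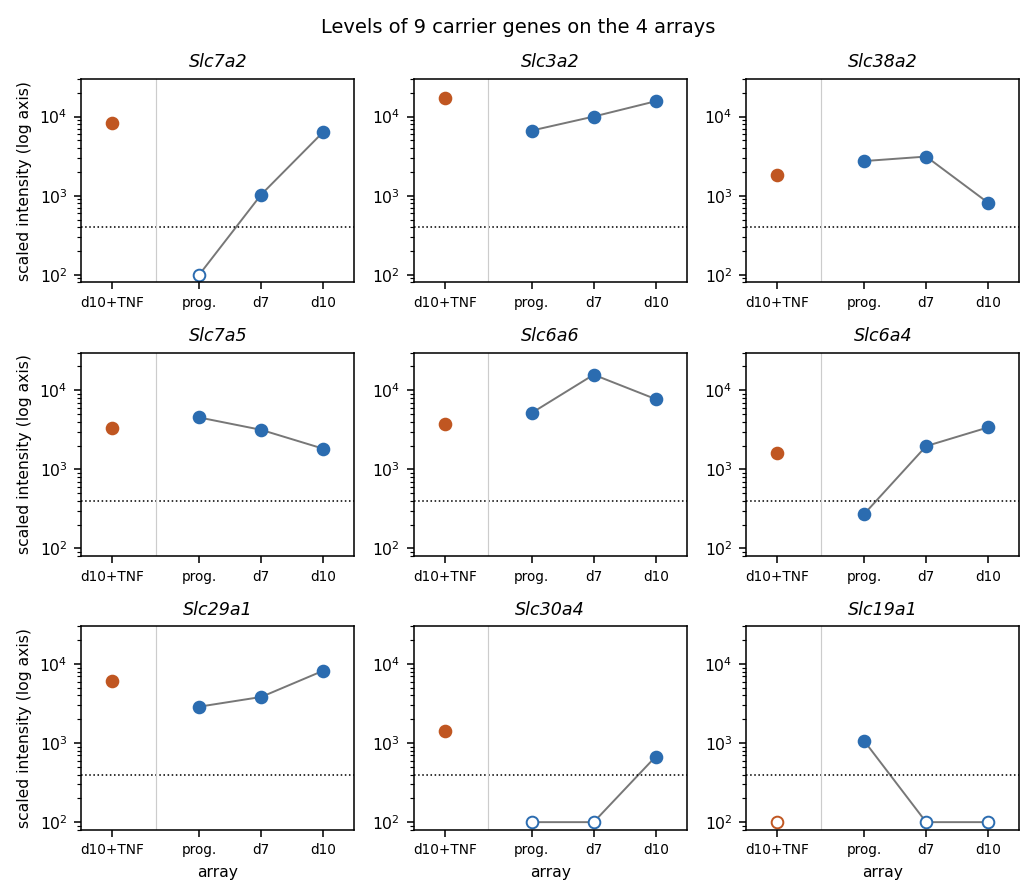
Scaled intensity (log axis) of 9 carrier genes on the array of day 10 cells with TNF (orange, left of the grey line) and on the series of progenitors, day 7 and day 10 (blue, joined). Open circles are levels under 100 units drawn at 100, and the dotted line is 400 units; Slc7a2 climbs over the series to 6393 units at day 10, Slc38a2 is lowest at day 10 at 813 units, and Slc6a6 is highest at day 7 at 15739 units.

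Osmolyte and choline carriers held the member with the clearest peak at day 7 by its brightest probe set. Slc6a6 encodes the taurine transporter, and taurine is an osmolyte that myeloid cells keep at high levels. It read 3727 units with TNF, against 5166 in progenitors, 15739 at day 7 and 7734 at day 10. Day 7 was 3.05-fold above progenitors, day 10 was 2.04-fold under day 7, and TNF was 2.07-fold under day 10. A second, dimmer probe set gave a log2 ratio of 1.65 for day 7 against progenitor, close to the 1.61 of the first, but -0.06 for day 10 against day 7 and -0.35 for TNF against day 10, where the first gave -1.03 and -1.05. Both probe sets thus read day 7 above progenitors, and 1 of them read the lower levels after day 7. For day 10 against progenitor the second probe set gave 1.59, past 2-fold, where the first gave 0.58. The TNF ratio was -0.96 after quantile normalization. Slc44a1, a choline transporter gene, read 1387 units with TNF, against 268 in progenitors, 808 at day 7 and 950.2 at day 10, and was at least 2.02-fold higher at day 7 and at least 2.38-fold at day 10 than in progenitors. Its relatives Slc44a2 and Slc44a4 were called in no comparison, with ranges of 498 to 1648 and 447 to 728 units and their highest level in progenitors.

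Slc6a12, which encodes the betaine and GABA transporter, was higher with TNF, at 1155 units, against 323 in progenitors, 407 at day 7 and 484 at day 10. The TNF array stood apart from the other 3, 2.39-fold above day 10 (log2 ratio 1.25). TNF signals through NF-kB, so the promoters were searched for the letters GGGAN followed directly by TTTCC, on both strands. They were found in windows of Slc37a4, Slc6a12 and Slc6a13, 2.91% of member windows against 0.411% of all windows. Slc6a12 was the 1 of 6 matched genes higher with TNF that held them, in 1 of its 5 windows, shown here: chr6:121342324-121342623 on the plus strand, with the letters in capitals from 133 bases before the start site.
Slc6a12: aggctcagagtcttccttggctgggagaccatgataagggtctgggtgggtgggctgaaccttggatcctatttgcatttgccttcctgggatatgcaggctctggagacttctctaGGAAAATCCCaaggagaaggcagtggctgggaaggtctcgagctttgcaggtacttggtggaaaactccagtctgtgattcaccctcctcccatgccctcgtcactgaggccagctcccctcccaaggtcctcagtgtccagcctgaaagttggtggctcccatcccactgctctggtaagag
Slc37a4 and Slc6a13 were not higher with TNF, at log2 ratios of -0.53 and 0.00.

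Carriers of metals were measured densely, with 16 of 17 above 400 units, and few were called. Zinc is moved out of the cytosol by the Slc30 proteins and into it by the Slc39 proteins. Slc30a4, which fills vesicles with zinc, read 1429 units with TNF, against -59.6 in progenitors, 45.8 at day 7 and 675 at day 10. It was seen on the day 10 arrays only, 2.12-fold higher with TNF than at day 10. Its other probe set read at most 25.1 units on every array, and the mean of both gave a log2 ratio of 0.84 in place of 1.08. Slc30a9 read 1206 units with TNF, against 428, 601 and 1024 units in the series, 2.39-fold higher at day 10 than in progenitors. Slc39a9 read 469 units with TNF, against 842, 375 and 172 units, and was at least 2.11-fold lower at day 7 and at day 10 than in progenitors.

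The remaining zinc genes were not called by their brightest probe set. Slc30a5, a Golgi zinc transporter gene, had its highest level in progenitors and ranged from 854 to 2040.3 units. Its second, dimmer probe set read 237 units with TNF, against 905, 356 and 268 units in the series, a log2 ratio of -1.18 at day 7 and at day 10 against progenitor, past 2-fold, where the first gave -0.83 and -0.75. Slc30a3 was also highest in progenitors and ranged from 1229.6 to 2120.3 units. Slc39a7, which releases zinc from the secretory pathway, ranged from 1754 to 3057 units and was also highest in progenitors. Slc39a1, a zinc importer gene of the cell surface, ran the other way, at 3716 units with TNF, against 1508, 2258 and 2713 units, within 2-fold in each comparison made here. Slc39a6 ranged from 289.7 to 785 units and was highest at day 7, while Slc39a3 (96.4 to 511) and Slc39a4 (253 to 446) lay near 400 units. Slc30a1, the zinc exporter of the cell surface, exceeded 400 units with TNF only, at 455 units, against 150.2, 360.5 and 318 units.

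The metallothionein genes Mt1 and Mt2, whose products bind zinc, are driven by metal response elements, which Slc30a1 is also known to carry. Mt2 read 60499.6 units with TNF, against 7168 in progenitors, 20117 at day 7 and 83657 at day 10, 11.7-fold higher at day 10 than in progenitors. Mt1 read 63394 units, against 20536, 18236 and 91448, 4.45-fold higher in the same comparison. Genes with a mean level above 16000 units, as both have, had a median log2 ratio of 1.4 there, against 3.54 for Mt2 and 2.15 for Mt1. Of the 4 genes in the zinc handling list 2 were higher and 1 lower there, against 16.3% and 14.1% of all genes above 400 units. The lower one was Mtf1, at 487 units with TNF, against 1013, 333 and 497 units in the series. Mt3 was not called, at 2084 units with TNF, against 1640.1, 1171 and 1975 units. The element was searched as TGCACNC or TGCGCNC on both strands, and is in capitals in the windows of both zinc exporters, one called with TNF and one not. Slc30a1 (chr1:191906531-191906830, plus strand) holds it from 43 bases before and from base 31 after the start site, and Slc30a4 (chr2:122702614-122702913, minus strand) from 228, 92 and 6 bases before.
Slc30a1: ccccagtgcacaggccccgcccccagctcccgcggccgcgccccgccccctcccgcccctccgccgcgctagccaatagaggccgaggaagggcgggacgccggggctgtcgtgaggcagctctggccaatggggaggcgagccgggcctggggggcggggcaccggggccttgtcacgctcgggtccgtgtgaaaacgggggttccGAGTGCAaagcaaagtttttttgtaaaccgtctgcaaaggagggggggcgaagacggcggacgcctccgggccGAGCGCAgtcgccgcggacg
Slc30a4: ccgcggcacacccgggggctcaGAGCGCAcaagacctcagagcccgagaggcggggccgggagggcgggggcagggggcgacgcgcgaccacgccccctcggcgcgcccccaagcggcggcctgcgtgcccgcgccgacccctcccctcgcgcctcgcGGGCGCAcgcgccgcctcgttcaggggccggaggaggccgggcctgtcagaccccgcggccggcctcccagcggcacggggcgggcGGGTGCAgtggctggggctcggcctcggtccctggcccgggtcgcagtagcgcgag
These letters are common. They stood in 25.7% of all windows, 39.8% of member windows, 44% of those of members higher at day 10 than in progenitors, 50% of the 8 windows of members lower there, and 37% of those called in no comparison. The sets were not matched for base composition.

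Among iron, copper, magnesium and haem carriers 1 gene was called. The haem transporter gene Slc48a1 read 986 units with TNF, against 2133 in progenitors, 1118 at day 7 and 2122 at day 10, and TNF was 2.15-fold under day 10. Slc11a2, the iron importer DMT1, read 3857 units with TNF, against 2199, 2938 and 3614 units, 1.64-fold higher at day 10 than in progenitors. Slc11a1, which pumps metals out of the phagosome of macrophages, was highest at day 7 at 763 units, with 242 with TNF, 277 in progenitors and 339.8 at day 10. The copper importer gene Slc31a1 ranged from 2562 to 3999 units, and Slc41a1, a magnesium transporter gene, read 1007 units with TNF, against 137, 289.8 and 522. Of 9 genes of the iron handling list measured, 4 lay above 400 units. The transferrin receptor gene Tfrc was 2.77-fold lower at day 10 than in progenitors, at 4727 units with TNF, against 9875, 4736 and 3566. The ferritin gene Fth1 was 3.44-fold higher in that comparison, at 76181 units with TNF, against 27721, 26998 and 95466 units, and genes as bright had a median of 1.4 there on the log2 scale, against 1.78 for Fth1.

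Carriers of neurotransmitters gave the largest ratio at day 7. Slc6a4 encodes the serotonin transporter, which takes up serotonin in neurons and platelets. It read 1602 units with TNF, against 272 in progenitors, 1968 at day 7 and 3397 at day 10. Progenitors alone lay under 400 units, and day 7 was at least 4.92-fold and day 10 at least 8.49-fold higher than progenitors (log2 ratios 2.30 and 3.09). TNF was 2.12-fold under day 10. Slc32a1, the vesicular transporter of GABA and glycine, read 211 units with TNF, against -26.3, 358 and 1344 units in the series. It exceeded 400 units at day 10 only, at least 3.36-fold above the other arrays. Slc6a13, another GABA transporter gene, stayed between 900.5 and 1133 units. Of 6 neural markers measured, 5 (Snap25, Syt1, Gad1, Nefl and Gfap) were at or near 0, between -80.9 and 73.8 units, on all 4 arrays, while Mbp, which blood cells also transcribe, ranged from 1198 to 1989 units. The list summed to 2166 units with TNF, against 1315 in progenitors, 1303 at day 7 and 1813 at day 10. Each of these 3 carriers was read by a single probe set.

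Sugar carriers other than Slc2a1 were represented by 4 of 9 genes above 400 units. Slc2a8, a hexose transporter of internal membranes, read 1274 units with TNF, against 518 in progenitors, 682 at day 7 and 1478 at day 10. Both day 10 arrays were high, with day 10 2.17-fold above day 7 and 2.85-fold above progenitors. The first of these was short of a call in the deposited values (log2 ratio 0.99) and with probe sets averaged (0.82). Slc2a3, the high-affinity glucose transporter GLUT3, read 331 units with TNF, against 1865, 999 and 966 units, so TNF was at least 2.42-fold under day 10, or -0.80 on the log2 scale with probe sets averaged in place of -1.27. Slc37a4, which moves glucose 6-phosphate into the endoplasmic reticulum, dipped at day 7, with 936 units with TNF, against 1254 in progenitors, 563 at day 7 and 1350.1 at day 10. Day 7 was 2.23-fold under progenitors and day 10 2.4-fold above day 7. Slc50a1 ranged from 829 to 1197 units.

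Of the monocarboxylate carriers, which export lactate, only 3 were measured, and 1 lay above 400 units. Slc16a1 and Slc16a7 lay under 400 units on every array, and Slc16a8, a lactate transporter of the retinal epithelium, ranged from 369 to 768 units with TNF highest. Their chaperones were bright. Bsg, which brings Slc16a1 to the surface, read 12987 units with TNF, against 8040.2, 5351 and 14206 units, 2.66-fold higher at day 10 than at day 7. Emb, a second chaperone of these carriers, read 969.6 units with TNF, against 13549, 5701 and 3219.7 units, 4.21-fold lower at day 10 than in progenitors and 3.32-fold lower with TNF than at day 10.

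Vitamin and nucleoside carriers had 4 of 8 genes above 400 units and 3 called. Slc19a1, the reduced folate carrier that dividing cells use for nucleotide synthesis, read -776 units with TNF, against 1067 in progenitors, -245 at day 7 and -88 at day 10. It was seen in progenitors only, at least 2.67-fold above day 7 and day 10, with a second probe set under 0 on every array. Averaging the 2 probe sets shrank the log2 ratio of -1.42 to -0.32. Slc29a1 encodes the equilibrative nucleoside transporter ENT1. It read 6123 units with TNF, against 2883 in progenitors, 3825 at day 7 and 8209 at day 10, and was 2.15-fold higher at day 10 than at day 7 and 2.85-fold higher than in progenitors. The ratio to day 7 was 0.97 on the log2 scale after quantile normalization and 0.98 in the deposited values. A second probe set gave larger log2 ratios, 1.41 and 2.58, where the first gave 1.10 and 1.51, and both read TNF under day 10 (-0.81 and -0.42). The vitamin C transporter gene Slc23a2 read 1720.5 units with TNF, against 893, 2218 and 1915 units, 2.49-fold higher at day 7 and 2.15-fold higher at day 10 than in progenitors, the day 10 ratio being 0.98 on the log2 scale in the deposited values. Slc5a6, for biotin and pantothenate, stayed between 204 and 444 units.

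The mitochondrial carrier family Slc25, most of whose members act in the inner membrane, had 11 of 19 genes above 400 units, and 2 were called. Slc25a20, which brings acylcarnitines in for fat oxidation, read 994 units with TNF, against 1860.5 in progenitors, 2034 at day 7 and 888 at day 10. Both day 10 arrays were low, with day 10 2.29-fold under day 7 and 2.09-fold under progenitors. Slc25a10, the dicarboxylate carrier, read 1154 units with TNF, against 955, 521 and 432 units. TNF was 2.67-fold above day 10, the highest TNF ratio among the 82 members (log2 ratio 1.42), and day 10 was 2.21-fold under progenitors. The ADP/ATP carrier genes were called in no comparison. Slc25a5 read 15614 units with TNF, against 11555, 9089 and 12581, and Slc25a4 9858 units, against 4607, 5014 and 7913, higher on each later array. The citrate carrier gene Slc25a1 ranged from 2745 to 4192 units with progenitors highest, and Slc25a39, for glutathione, from 3602 to 5169 with TNF highest. Slc25a17 ranged from 1100.3 to 2318 units, Slc25a28, which imports iron, from 1103 to 1293, and the ornithine carrier gene Slc25a15 from 434 to 719. Slc25a51, for NAD, was above 0 at day 10 only (667 units). Slc25a3, the phosphate carrier that oxidative phosphorylation needs, read 432 units in progenitors and at most 83.4 units elsewhere.

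Fatty acid transport proteins, the Slc27 family, had 3 of 5 genes above 400 units and all 3 called. Slc27a1 read 1630.2 units with TNF, against 1453 in progenitors, 1818 at day 7 and 3068 at day 10, and was 2.11-fold higher at day 10 than in progenitors (log2 ratio 1.08, or 0.96 in the deposited values). Slc27a3 read 1623 units with TNF, against -472, -872 and 759 units, 2.14-fold higher with TNF than at day 10 and below 0 on both earlier arrays. Slc27a4 read 291 units with TNF, against 1569, 1015 and 956 units, at least 2.39-fold lower with TNF. The 3 genes thus differed in the direction of their TNF ratio, with Slc27a1 at -0.91 on the log2 scale.

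Carriers of inorganic ions had 8 of 17 genes above 400 units, 3 of them called. Slc8a1, the sodium and calcium exchanger, read 1399 units with TNF, against 170 in progenitors, 608 at day 7 and 648 at day 10, with TNF 2.16-fold above day 10. Its 2 other probe sets lay under 400 units on every array, and the mean of all 3 gave a log2 ratio of 0.36 in place of 1.11. Slc4a3, an anion exchanger gene, read 675 units with TNF, against 315, 416 and 867 units, 2.09-fold higher at day 10 than at day 7 (log2 ratio 1.06, or 0.93 in the deposited values). Slc4a1 encodes band 3, the anion exchanger of red cells, and read 126 units with TNF, against 833 in progenitors, 122 at day 7 and 43 at day 10. It was seen in progenitors only, at least 2.08-fold above day 7 and day 10. Of 6 erythroid markers measured, Epor and Gata1 were below 0 on all 4 arrays and Alas2 was at most 104 units, while Klf1, Ank1 and Hba-a1 exceeded 400 units on some array. Hba-a1 read 582 units with TNF, against 824 in progenitors, 609.5 at day 7 and 327 at day 10, at least 2.06-fold lower at day 10 than in progenitors, as Slc4a1 was. Its part in the Slc4a1 result was not tested. With Klf1 and Ank1 as its largest terms with TNF, the list summed to 3249 units with TNF, against 2582, 2229 and 2269 units. The Golgi sodium and proton exchanger gene Slc9a8 read 1619 units with TNF, against 672, 1310.1 and 1324 units, 1.95-fold higher at day 7. The potassium and chloride cotransporter genes Slc12a4 and Slc12a7 ranged from 577 to 1433 and from 197 to 654 units. Slc4a2 ranged from 1421 to 1747 units, and Slc26a2, a sulphate transporter gene, exceeded 0 with TNF only (547 units). The phosphate transporter gene Slc20a1 read 563 units with TNF, against 787, 1195 and 391 units, and was at least 2.99-fold lower at day 10 than at day 7.

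Carriers of nucleotide sugars, the Slc35 family that supplies glycosylation in the Golgi and endoplasmic reticulum, had 6 of 7 genes above 400 units. Slc35b1 read 3518 units with TNF, against 8262 in progenitors, 4175 at day 7 and 4093 at day 10. Progenitors alone were high, with day 10 2.02-fold lower. Slc35c2 read 1227 units with TNF, against 2508, 2337 and 3077 units, 2.51-fold lower with TNF than at day 10. Slc35b2, which carries the sulphate donor, ranged from 1968 to 2779 units, and Slc35a1, for sialic acid, Slc35a2, for galactose, and Slc35d1 stayed under 700 units, at 287 to 650.3, 261 to 659.7 and 107 to 544. Orphan relatives included Slc35e1, at 1101 units with TNF, against 2354, 1160.1 and 1177, which was 2.03-fold lower at day 7 than in progenitors, and Slc35e4, at 361 units, against 224, 697 and 903, at least 2.26-fold lower with TNF. Slc35g3 reached 919 units with TNF, against -16.7, 248 and 693, and was called in no comparison, and nor was Slc6a20b.

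Carriers of organic ions and bile acids were mostly unread, with 4 of 15 above 400 units. Slc10a3 read 2137 units with TNF, against 1192 in progenitors, 1642 at day 7 and 2397 at day 10, 2.01-fold higher at day 10 than in progenitors (log2 ratio 1.01, or 0.98 after quantile normalization and 0.89 in the deposited values). The urate transporter gene Slc22a12 ranged from 138 to 795 units with progenitors highest, Slc22a18 from 78.4 to 1071 with TNF highest, and Slc22a17 from 8.75 to 425. The 1 peptide carrier measured, Slc15a2, lay under 400 units. Of 3 genes named after a carrier whose products are adaptors, Slc9a3r1, a scaffold of membrane proteins, ranged from 4888 to 7293 units and Slc4a1ap from 474 to 681, neither called.

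Day 7 against progenitor and TNF against day 10 share no array, so their ratios can be set side by side. Of the 5 members higher at day 7, Slc6a4 and Slc6a6 were lower with TNF and Slc23a2, Slc44a1 and Slc7a2 were not called with TNF. All 6 members lower at day 7 (Slc19a1, Slc1a5, Slc35e1, Slc37a4, Slc39a9 and Slc4a1) were not called with TNF, Slc19a1 and Slc4a1 lying under 400 units on both day 10 arrays. The 6 genes higher with TNF were Slc25a10, Slc27a3, Slc30a4, Slc38a2, Slc6a12 and Slc8a1, and none of them was called at day 7. Over all genes 9.65% were called higher and 8.97% lower at day 7, and 4.43% and 4.78% with TNF, so nothing is read from the lack of overlap among so few members. Granulocyte markers were lower on the TNF array as well, with 6 of 8 lower, 0 higher and a summed level of 17537 units, against 141744 units at day 10. Macrophage markers had 2 of 7 lower there. The part of these cells in the 8 carriers lower with TNF was not tested.

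**Figure D4:**
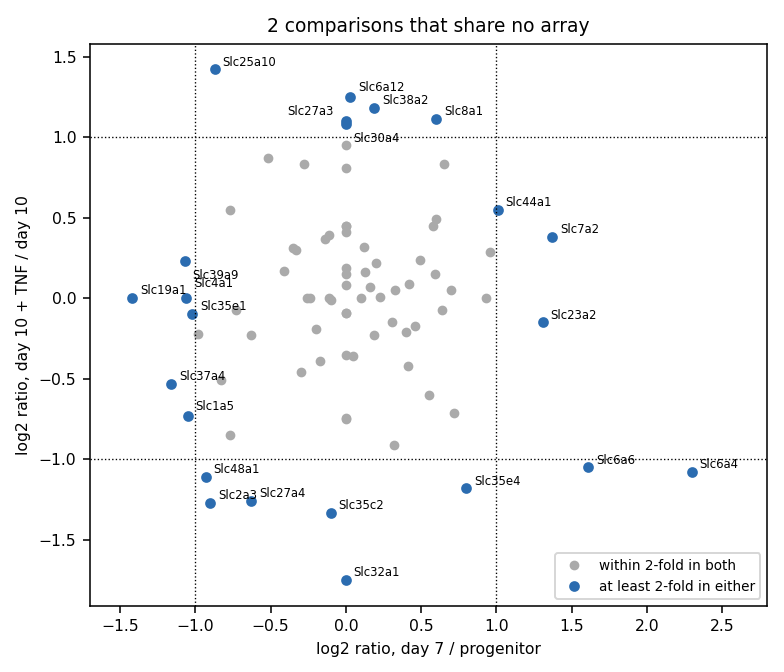
Log2 ratio of day 10 cells with TNF over day 10 (vertical) against that of day 7 over progenitor (horizontal) for the 82 carrier genes, with dotted lines at 2-fold. Blue points are called in either comparison; Slc6a4 and Slc6a6, at lower right, are called in both, and 59 grey points in neither.

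The brightness range in which day 10 read above day 7 over all genes holds few members, since 8 of the 82 had a mean level of 4000 units or more. The highest ratio of day 10 to day 7 among the 8 was that of Slc29a1, at 1.10 on the log2 scale or 0.97 after quantile normalization. The ratio was 0.64 for Slc3a2, 0.66 for Slc25a4 and 0.47 for Slc25a5, or 0.30, 0.49 and 0.16 after quantile normalization, while Slc6a6 was at -1.03 and -1.59. The ratio of Slc7a2, 2.63 and 2.55, lay above the whole range of the spiked transcripts.

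**Figure D5:**
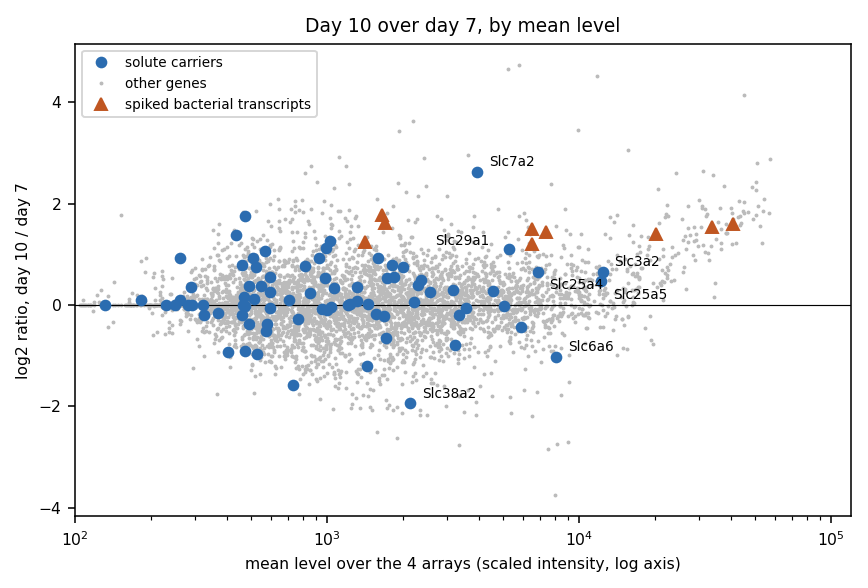
Log2 ratio of day 10 over day 7 against the mean level over the 4 arrays (scaled intensity, log axis) for carrier genes (blue), other genes above 400 units on some array (grey) and spiked bacterial transcripts (orange). Genes with a mean level under 100 units are not drawn, which leaves 79 of the 82 carriers; the spiked transcripts lie between 1.20 and 1.77, and Slc7a2 lies above them at 2.63.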

How the data were processed

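Per the labels, total RNA of 4 mouse cell samples was hybridised to 1 array each. The deposited values are intensities on a linear scale for 12654 probe sets. For these values the software, background method and scaling were not given in the sources used here. Values below 0 imply that a signal was subtracted. No scan date or batch was given either. The platform annotation gave 10298 probe sets 1 symbol, 363 several and 1993 none, and 10279 symbols were found by Entrez number in RefSeq (GRCm38.p6). Probe sets with several symbols (1 of them a carrier) or none and 66 controls were left out.

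From the deposited intensities each array was multiplied (by 0.962 to 1.05) so that all had the same 75th percentile. The probe set with the highest mean stood for its gene. Levels under 400 units were raised to 400 before log2 ratios were taken, and calls were made at 2-fold. The calling code was checked on simulated data for bright genes with low noise. That check says little about calls near 400 units. With 1 array per group no test was run. Python 3.11.15, numpy 2.4.6 and pandas 2.3.3 were used.

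All members above 400 units are named, those called in any of the 4 comparisons with 4 levels. Members were taken by symbol alone, but that rule, the lists, the motifs and the shown promoters were set with earlier results of these data known. Alternatives were other scalings, floors (105 and 800 units), a 3-fold rule, all probe sets averaged, and other filters.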

Additional observations from a re-analysis of the deposited data

How the results depend on the processing

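Of 59 single-gene calls, none changed sign after quantile normalization or with all probe sets of a gene averaged. A change of floor or fold cannot reverse a sign, and scaling by 0.962 to 1.05 cannot reverse a 2-fold ratio. A lower floor can only keep or enlarge these ratios. In the values as deposited 53 stayed at 2-fold or more, after quantile normalization 55, with all probe sets of a gene averaged 51, at a floor of 105 units 59, at a floor of 800 units 28 and under a 3-fold rule 10. The calls lost after quantile normalization were Slc3a2 and Slc10a3 at day 10 against progenitor (both 0.98 on the log2 scale), Slc29a1 at day 10 against day 7 (0.97) and Slc6a6 with TNF (-0.96). Averaging probe sets, which lost 8 calls, took among others Slc8a1 with TNF to 0.36, Slc2a3 to -0.80 and Slc30a4 to 0.84.

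Counts moved more, in the main with the floor and the fold, by construction. The 5 higher and 6 lower at day 7 became 3 and 2 at a floor of 800 units, 2 and 0 at 3-fold, and 2 and 3 among 48 members above 400 units on both arrays. At a floor of 105 units 17 were higher and 8 lower. Higher genes were then 68% of those called at day 7, 64% at day 10 against day 7 and 67.4% at day 10 against progenitor. The 7 higher and 4 lower at day 10 against day 7 became 16 and 9 at 105 units, 2 and 1 at 3-fold, with 2 higher at 800 units and 4 higher in the deposited values. The 14 higher and 9 lower at day 10 against progenitor became 29 and 14 at 105 units, 7 and 5 at 800 units, 3 and 1 at 3-fold, with 7 higher among 45 members above 400 units on both arrays. The 6 higher and 8 lower with TNF became 2 and 4 at 800 units, 0 and 1 at 3-fold, with 4 lower among 57 members above 400 units on both arrays. Background shares moved as well. For day 10 against progenitor, higher, the share of all genes went from 16.3% to 22.3% at 105 units, while the members went from 14 to 29 of 82. There the members rose more than the background. Over all settings the median log2 ratio of the members lay between -0.11 and 0.13 at day 7, 0.00 and 0.19 at day 10 against day 7, 0.00 and 0.37 at day 10 against progenitor, and 0.00 and 0.05 with TNF. No paired analysis was possible because each group has 1 array and the labels give no replicate numbers. The single array of each group limits every value here, and members near 400 units are the least certain.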

Other observations

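Other membrane transport families offer a comparison with the carriers. All 13 subunit genes of the V-ATPase measured, the pump that acidifies endosomes and lysosomes, lay above 400 units. At day 10 against progenitor 3 were higher and 0 lower, with a median log2 ratio of 0.70, where the 82 solute carriers had 0.11 and 16.3% of all genes were higher. Atp6v1b2 read 17671 units with TNF, against 6676 in progenitors, 14547 at day 7 and 24715 at day 10, 3.7-fold higher at day 10 than in progenitors, and Atp6v0a1 read 2975 units, against 1643, 4680.4 and 4355. With TNF the 13 had a median of -0.41, and Atp6v1c1 was at least 2.28-fold lower. By mean level, all genes had a median of 0.17 (4000 to 8000 units) and 0.45 (8000 to 16000 units) at day 10 against progenitor. The second range holds Atp6v1b2. Atp6v0a1, Atp6v0a2, Atp6v0e2, Atp6v1c1 and Atp6v1h had mean levels under 4000 units, and Atp6v0e above 16000 units. The median of all genes was lower at 400 to 4000 units and higher above 16000 units, so brightness differs among the 13.

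Of 25 ABC transporter genes measured, 16 lay above 400 units, with 1 higher and 3 lower at day 10 against progenitor. Over all genes above 400 units on some array 16.3% were higher and 14.1% lower there, so no lean is read from these few genes. The cholesterol exporter gene Abca1 read 1904 units with TNF, against 24.6 in progenitors, 999.8 at day 7 and 1022 at day 10, at least 2.55-fold higher at day 10 than in progenitors. The aquaporin gene Aqp9, a channel for water and glycerol, read 5584 units with TNF, against 139.6, 1298 and 1906 units, 2.93-fold higher with TNF than at day 10 and at least 4.77-fold higher at day 10 than in progenitors. Atp2a3, a calcium pump of the endoplasmic reticulum, read 1382 units with TNF, against 4944, 4584 and 3947 units, 2.86-fold lower with TNF than at day 10. The lipoprotein receptor gene Vldlr exceeded 400 units with TNF only, at 1774 units, at least 4.43-fold above day 10.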
